A study of Rattus norvegicus with 26 samples.

Results

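Albumin (ENSRNOG00000002911) and alpha-fetoprotein (AFP, ENSRNOG00000002889) were followed by their identifiers through all 26 RNA sequencing libraries of a study of rat fetal liver cells before and after transplantation. They are 2 of the 32552 features counted. Before transplantation there were 4 libraries of adult hepatocytes and 4 of each of 3 sorts of fetal hepatocytes, labelled LAP+, LAP+/OC2- and LAP+/OC2+. The labels do not spell out LAP or OC2, and give neither strain nor age beyond adult and fetal. After transplantation, laser capture gave fetal-derived colony tissue and adult host liver tissue from 5 animals (242, 243, 246, 248 and 249). The labels say neither which sort gave rise to the colonies nor how long they grew. Per the labels' protocols the fetal cells were immunopurified. Captured tissue is a piece of liver and can hold cells other than hepatocytes.

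Albumin is the main protein of blood plasma, made and secreted by hepatocytes. It carries fatty acids, hormones and drugs and holds fluid in the vessels. AFP is the related plasma protein of the fetus, made by the yolk sac and fetal liver. Its gene is switched off in liver around birth and can return in regenerating liver and in liver tumours. The pair arose by duplication of an ancestral gene, and both are transcribed in hepatocytes from promoters and shared enhancers bound by liver transcription factors such as HNF1 and C/EBP.

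Both genes lie on the minus strand of chromosome 14, AFP from 19141755 to 19159923 and albumin from 19176277 to 19191863 (positions as in the count files, whose build the labels do not name). Transcription runs from albumin towards AFP, across a gap of 16353 nt, and no other feature lies within the span of the pair. Each has 15 exons. Exons 4 to 13, 10 of the 15, have the same length in both genes and together hold 1515 nt, while exons 1, 2, 3, 14 and 15 are longer in albumin by 6 to 38 nt. The total exon length is 2069 nt for albumin and 1990 nt for AFP, so that levels of the 2 genes can be compared per exon nucleotide with little correction. The run of 7 exon lengths from exon 4 to exon 10 occurs in 4 of the 32552 features, and these 4 lie side by side, albumin and AFP first and 2 further features downstream.

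The promoters are shown because the pair moved apart between adult and fetal cells and together between fetal sorts. The windows run from 250 bases before to 50 bases after the annotated start in RefSeq (build GRCr8, minus strand, Alb at chr14:17906930-17907229 and Afp at chr14:17875596-17875895). Capitals mark GTTAAT, one arm of the sequence bound by HNF1.
Alb: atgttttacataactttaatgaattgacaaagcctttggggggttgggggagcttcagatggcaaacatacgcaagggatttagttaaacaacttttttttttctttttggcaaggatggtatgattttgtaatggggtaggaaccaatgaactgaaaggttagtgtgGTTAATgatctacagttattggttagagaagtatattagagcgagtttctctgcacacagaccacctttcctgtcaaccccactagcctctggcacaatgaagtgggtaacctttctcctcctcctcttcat
Afp: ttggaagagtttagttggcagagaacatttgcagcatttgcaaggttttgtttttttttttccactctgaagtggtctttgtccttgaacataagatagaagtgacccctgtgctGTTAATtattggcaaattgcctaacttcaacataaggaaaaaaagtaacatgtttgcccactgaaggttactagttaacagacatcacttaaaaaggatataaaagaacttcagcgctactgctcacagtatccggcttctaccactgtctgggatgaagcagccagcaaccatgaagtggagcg
Searched on both strands, GTTAAT occurred once in each window, with its first base at -82 in Alb and at -135 in Afp, counted in bases from the annotated start. Of 33469 promoter windows of the same length, 7.45% held it. The full palindrome, this arm, any 1 base and the reverse complement of the arm, was in neither window and in 0.00299% of all windows. CCAAT, a sequence read by NF-Y, occurred 2 times in the Alb window and 1 time in the Afp window, without overlap with GTTAAT. It was in 37.5% of all windows. TATAAA was found in the Afp window, at -37, not in the Alb window, and in 14.2% of all windows. These are exact matches of letters in 1 window and show no binding. Near matches, with 1 or more bases changed, were not searched for.

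Library totals ranged from 7871347 to 16874438 counts. The LAP+/OC2+ libraries stood apart, with 38.9 to 78.6% of their counts on the mitochondrial genome, against 4.11 to 10.3% in the other cell libraries and 0.57 to 1.42% in captured tissue. Levels are therefore given as a share of nuclear counts, which leaves mitochondrial features out, or as CPM scaled by the TMM method of edgeR. Different library kits were used for sorted cells and captured tissue, so no level was compared between the stages. The labels call the replicates biological without saying that equal numbers before transplantation share an animal or litter.

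Albumin was the most abundant nuclear transcript per exon nucleotide in most libraries, and it is the defining marker of the hepatocyte, the cell type in the labels. Ranked by counts per exon nucleotide among nuclear features of at least 200 nt, it came first in every adult, LAP+, host and colony library and in LAP+/OC2- libraries 3, 4 and 5. In LAP+/OC2- library 1 it came second, behind a feature on chromosome 10 (15602794 to 15603649) at 1.09 times its level per nucleotide. In LAP+/OC2+ libraries 1 to 4 it ranked 8, 12, 15 and 33, and the chromosome 10 feature stood at 7.45, 9.23, 27.7 and 64.1 times the albumin level per nucleotide. The LAP+/OC2+ sort carries the same hepatocyte label, and albumin was present in it without leading.

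**Figure D1:**
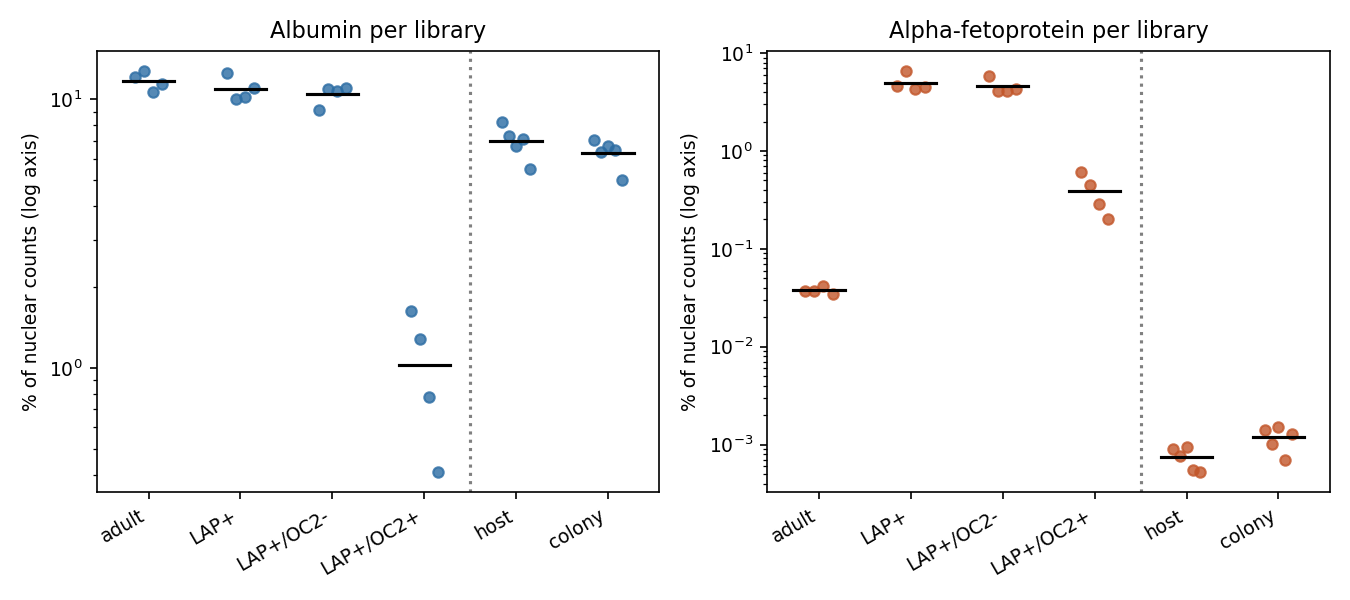
Share of nuclear counts (%, log axis) of albumin (left) and alpha-fetoprotein (right) in each of the 26 libraries, by group, with a bar at the group mean; the dotted line divides cells before transplantation from captured tissue after it. Albumin lies close together in adult, LAP+ and LAP+/OC2- cells and about 10 times lower in LAP+/OC2+ cells, while AFP is lowest before transplantation in adult cells.

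Adult and fetal hepatocytes of the LAP+ and LAP+/OC2- sorts held similar shares of albumin RNA. It took 12.1, 12.8, 10.7 and 11.4% of nuclear counts in adult libraries 1 to 4, and 12.5, 10.01, 10.2 and 11.05% in LAP+ libraries 1 to 4. In LAP+/OC2- libraries 1, 3, 4 and 5 it took 9.11, 10.9, 10.8 and 11.01%. These 3 groups overlapped by share. On the TMM scale the means were 114368 ± 9548 CPM in adult, 79943 ± 11930 CPM in LAP+ and 79441 ± 12064 CPM in LAP+/OC2- cells (n = 4 each, SD), and every adult library lay above every fetal one. The fitted log2 difference was -0.52 for LAP+ minus adult (SE 0.31, edgeR quasi-likelihood test with Benjamini-Hochberg adjustment over all genes, adjusted p = 0.16) and -0.53 for LAP+/OC2- minus adult (edgeR adjusted p = 0.16, SE 0.31). Fitted on the 2 groups alone these differences were -0.49 and -0.51 and passed the threshold of 0.05 (edgeR adjusted p = 0.024 and 0.023). Among all 13818 genes tested, 60.3% were called for LAP+ against adult cells (28.5% lower) and 59.3% for LAP+/OC2- (28.4% lower).

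AFP, in contrast, separated fetal from adult cells by a wide margin. It took 0.0373, 0.0369, 0.0413 and 0.0349% of nuclear counts in adult libraries 1 to 4, from 4877, 5509, 6020 and 5067 counts. In LAP+ libraries 1 to 4 it took 4.58, 6.60, 4.29 and 4.52%, and in LAP+/OC2- libraries 1, 3, 4 and 5 it took 5.85, 4.13, 4.13 and 4.34%. No library of either sort came near an adult one. AFP rose in LAP+ cells by 6.62 on the log2 scale (edgeR adjusted p = 6.9e-11, SE 0.33) and in LAP+/OC2- cells by 6.56 (edgeR adjusted p = 8.8e-11, SE 0.33). Genes called higher made up 31.7 and 30.9% of all tested in these comparisons, and AFP had the 70th and 49th highest difference of 13818. With 4 per group, the mean level was 98.2 times the adult one in LAP+ and 94.5 times in LAP+/OC2- cells on the TMM scale, and 133 and 123 times as a share of nuclear counts.

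The low AFP level in adult cells lay at 1.02% of the LAP+ level, and few of the transcripts abundant in LAP+ cells lay lower. Of 66 features with at least 1000 CPM in LAP+ cells, the lowest stood at 0.826% of the LAP+ level in adult cells, 3 lay below AFP and 54 were at 10% or more. Of 868 features with at least 100 CPM in LAP+ cells, the lowest stood at 0.515% and 10 lay below AFP. By adult library the AFP level was 1.02, 1.00, 1.10 and 0.952% of the LAP+ mean. The lowest of the 868 features stood at 0.147, 0.521, 0.344 and 0.54% in the same libraries. Both lists were chosen by their level in LAP+ cells, so the place of AFP in them is a description. The part of a low signal shared between libraries in the adult AFP level was not tested.

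The LAP+/OC2+ sort was low in both genes relative to the other fetal cells. Albumin took 1.63, 1.28, 0.781 and 0.41% of nuclear counts in libraries 1 to 4, and AFP took 0.612, 0.448, 0.289 and 0.203%. Both shares were highest in library 1 and lowest in library 4, and no library of this sort overlapped with LAP+ or LAP+/OC2- cells. Against LAP+/OC2- cells, albumin fell by 3.87 on the log2 scale (edgeR adjusted p = 5.8e-08, SE 0.35) and AFP fell by 4.07 (edgeR adjusted p = 5.1e-09, SE 0.29), where 67.5% of all genes were called, 30.8% higher and 36.6% lower. Against LAP+ cells the log2 difference was -3.88 for albumin (edgeR adjusted p = 5.9e-08, SE 0.35) and -4.12 for AFP (edgeR adjusted p = 4.5e-09, SE 0.29), where 67.8% were called, 32.0% higher and 35.9% lower. In these bulk libraries, fewer cells with albumin and AFP and less of both RNAs per cell cannot be told apart.

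The mitochondrial share moved with these levels from library to library. It was 78.6, 73.7, 57.6 and 38.9% in LAP+/OC2+ libraries 1 to 4, with 1917734, 2331228, 3336294 and 5045098 nuclear counts. Albumin itself had 31211, 29784, 26051 and 20705 counts in them. As a share of all counts, albumin averaged 0.316 ± 0.044% and AFP 0.124 ± 0.0055% in this sort (SD, n = 4). The part of cell make-up or RNA quality in the low nuclear shares was not tested. With mitochondrial features left out before scaling, the differences from LAP+/OC2- cells were -3.85 for albumin and -4.05 for AFP.

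Set against adult cells, the LAP+/OC2+ sort was lower in albumin and higher in AFP. Albumin fell by 4.39 on the log2 scale (edgeR adjusted p = 6.7e-09, SE 0.36) and AFP rose by 2.49 (edgeR adjusted p = 2.4e-07, SE 0.27), where 77.5% of all genes were called, 38.9% higher and 38.6% lower. The mean AFP level was 2063 ± 840 CPM in LAP+/OC2+ and 366 ± 22.5 CPM in adult cells (n = 4 each, SD), without overlap. The size of both differences depended on the scale. Albumin was 21.0 times lower by TMM CPM and 11.4 times lower by share of nuclear counts, and AFP was 5.63 and 10.3 times higher. Over the mean of the 3 fetal sorts, AFP rose by 5.22 (edgeR adjusted p = 8.3e-11, SE 0.29) and albumin fell by 1.81 (edgeR adjusted p = 2.6e-06, SE 0.23), where 72.4% of genes were called, 37.1% higher and 35.3% lower. The albumin value for the fetal mean combines a large fall in LAP+/OC2+ cells with differences of -0.52 and -0.53 that were not called in the others.

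LAP+ and LAP+/OC2- cells were close in both genes. The log2 difference, LAP+/OC2- minus LAP+, was -0.01 for albumin (SE 0.31) and -0.06 for AFP (SE 0.26), both with an edgeR adjusted p of 1, in a comparison where 0.391% of all genes were called, 0.246% higher and 0.145% lower. Within each group 1 library differed from the other 3. LAP+ library 2 had the highest AFP share of its group (6.60% against 4.29 to 4.58%) and the lowest albumin share. LAP+/OC2- library 1 likewise had the highest AFP share (5.85% against 4.13 to 4.34%) and the lowest albumin share.

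**Figure D2:**
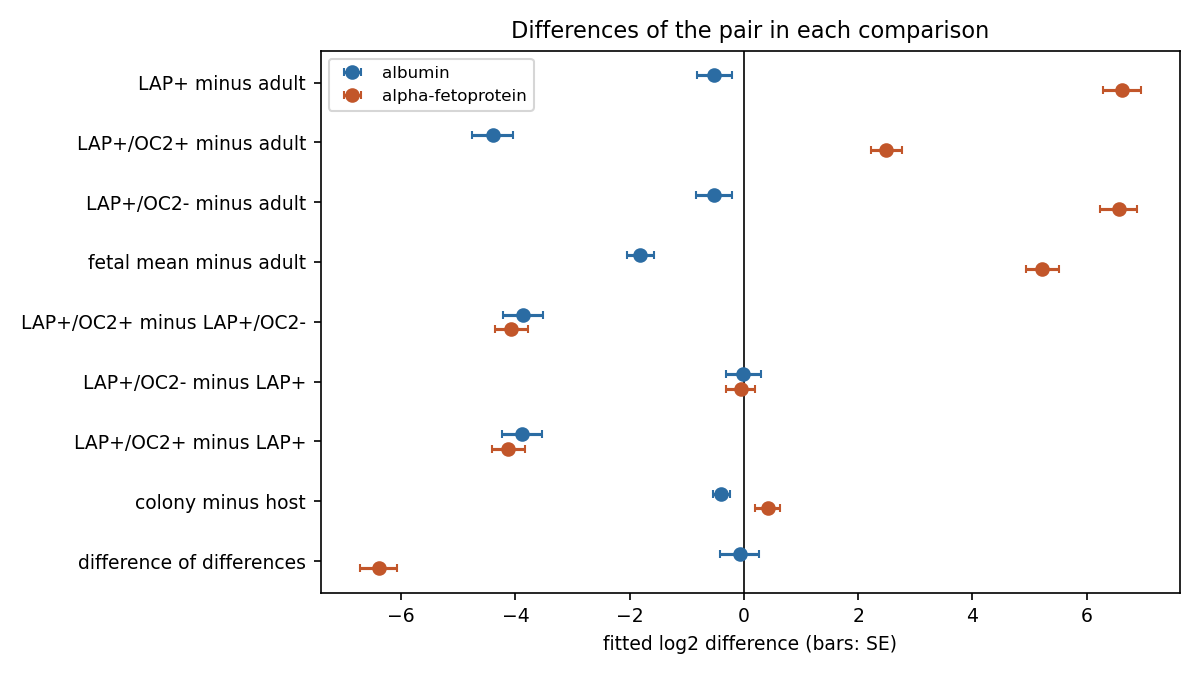
Fitted log2 differences of albumin and alpha-fetoprotein (x axis, bars show the SE) in the 9 comparisons (y axis); the last is colony minus host minus the LAP+ minus adult difference. The 2 genes lie far apart in the comparisons with adult cells and close together in those between fetal sorts.

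The ratio of the 2 genes in a library does not depend on how libraries are scaled to each other. Per exon nucleotide, AFP stood at 0.321, 0.301, 0.403 and 0.318% of albumin in adult libraries 1 to 4. In LAP+ libraries 1 to 4 it stood at 37.9, 68.6, 43.7 and 42.5% of albumin, and in LAP+/OC2- libraries 1, 3, 4 and 5 at 66.7, 39.3, 39.9 and 41.0%. In LAP+/OC2+ libraries 1 to 4, where both genes were low, it stood at 39.1, 36.4, 38.5 and 51.5%, of which 36.4% lay just below the lowest value of the other fetal sorts and the rest within their range.

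The log2 ratio over the 12 fetal libraries exceeded the adult one by 7.06 (2-sided exact permutation p = 0.0011, the smallest that these groups allow, and adjusted p = 0.0088 over 8 comparisons). The 3 sorts taken alone exceeded it by 7.13 for LAP+, by 7.09 for LAP+/OC2- and by 6.94 for LAP+/OC2+, each with an exact permutation p of 0.029, the smallest that 4 against 4 allow, and an adjusted p of 0.057. The test over the 12 fetal libraries treats each of them as independent. The labels do not say whether libraries of different sorts share animals or litters. Between fetal sorts the log2 ratio differed by less than its spread between libraries. The difference was -0.15 for LAP+/OC2+ minus LAP+/OC2- (exact permutation p = 0.46, adjusted p = 0.59), -0.19 for LAP+/OC2+ minus LAP+ (exact permutation p = 0.51, adjusted p = 0.59) and -0.04 for LAP+/OC2- minus LAP+ (exact permutation p = 0.66, adjusted p = 0.66). Over 4 libraries its SD was 0.38 for LAP+, 0.37 for the OC2- sort and 0.22 for the OC2+ sort. The fall of albumin and AFP in LAP+/OC2+ cells, 10.2 and 11.9 times by share of nuclear counts against LAP+/OC2- cells, came with a ratio within that spread.

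**Figure D3:**
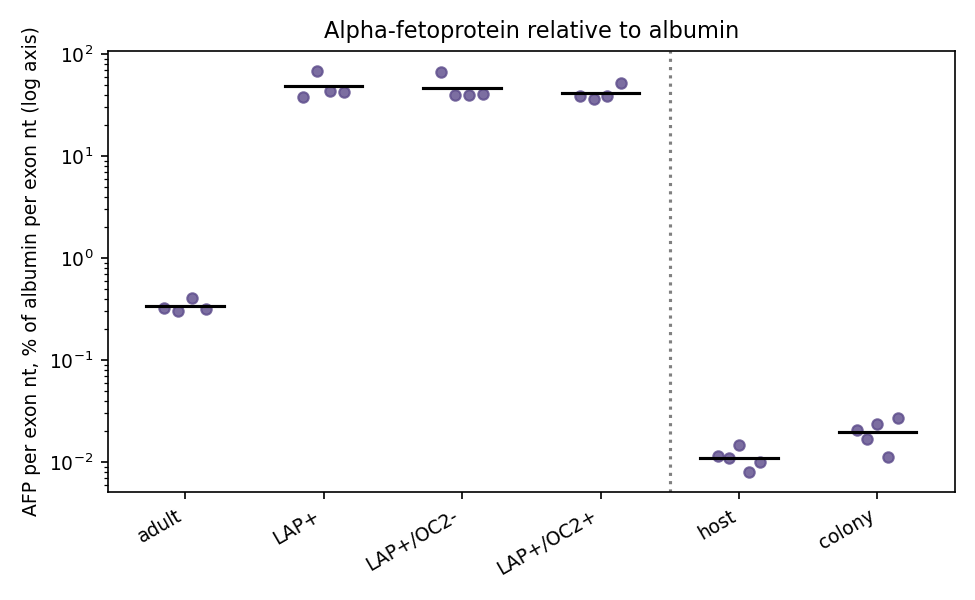
Level of alpha-fetoprotein per exon nucleotide as a percent of the albumin level per exon nucleotide (log axis) in each library, by group, with a bar at the group mean; the dotted line divides the stages. The 12 fetal libraries lie between 36.4 and 68.6%, the adult ones between 0.301 and 0.403%.

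The 2 features downstream of the pair share part of its exon pattern and had levels of their own. In the RefSeq annotation (GRCr8) the protein-coding genes in order along this stretch are Albfm1, Afm, Afp, Alb, Ankrd17 and Cox18, where Afm encodes afamin, a vitamin E binding protein of the albumin family. The count files do not pair their features with these names, and the features are given here by place. The nearer one (19078680 to 19132208, minus strand, 15 exons) begins 9546 nt beyond the AFP end. It has 10 exons of the same length as albumin at the same place and 9 in common with AFP. The next one (19028810 to 19072677, minus strand, 14 exons) shares 9 with albumin and 10 with AFP.

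Next to AFP, the nearer feature ran opposite to it between adult and fetal cells. Its level was 1351 ± 278 CPM for adult cells, against 73.2 ± 11.9 CPM for LAP+ cells (n = 4 each, SD), with a log2 difference of -4.21 (edgeR adjusted p = 2.4e-09, SE 0.28). The further feature had 118 ± 18.0 CPM for adult cells, against 96.1 ± 44.7 CPM for LAP+ cells (n = 4 each, SD; log2 difference -0.30, edgeR adjusted p = 0.58, SE 0.45). From LAP+/OC2- to LAP+/OC2+ cells both fell together with the pair, with log2 differences of -2.38 (edgeR adjusted p = 6.9e-07, SE 0.27) and -3.60 (edgeR adjusted p = 1.8e-05, SE 0.53).

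Further out, 17 features besides the pair lay within 500000 nt of it, and 11 of them were tested before transplantation. In LAP+ minus adult, 7 were higher and 2 lower, against 31.7% called higher and 28.5% called lower of all genes, with a median log2 difference of 1.69 beside 0.06 over all genes. Of the 9 called, the 6 farthest downstream of AFP were all higher. From the farthest inwards they averaged 0.289, 0.271, 8.64, 0, 0.31 and 0.0375 CPM in adult cells. In LAP+ cells the same features averaged 0.954, 21.1, 116, 0.229, 11.5 and 3.41 CPM. Features near 0 in adult cells could pass the low-count filter only through fetal libraries, so their direction was largely fixed beforehand. The counts and the median of 1.69 are therefore a description. Within 250000 nt, 1 of 5 tested features was higher and 2 were lower, with a median of -0.30. The share called there, 60.0%, was like the 60.3% of all genes, and 5 features are too few to show a direction. In LAP+/OC2+ minus LAP+/OC2-, 6 of the 11 features tested within 500000 nt were higher and 3 lower. Of all genes, 30.8% were called higher and 36.6% lower. The median was 0.79 for the 11 features, beside -0.18 over all genes. Among the 6, the feature absent from adult cells had a mean of 2.84 CPM for the OC2+ sort, against 0.0256 for the OC2- sort. It could pass the filter largely through the OC2+ libraries, so its direction was largely fixed beforehand. These counts and the median of 0.79 are likewise a description.

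**Figure D4:**
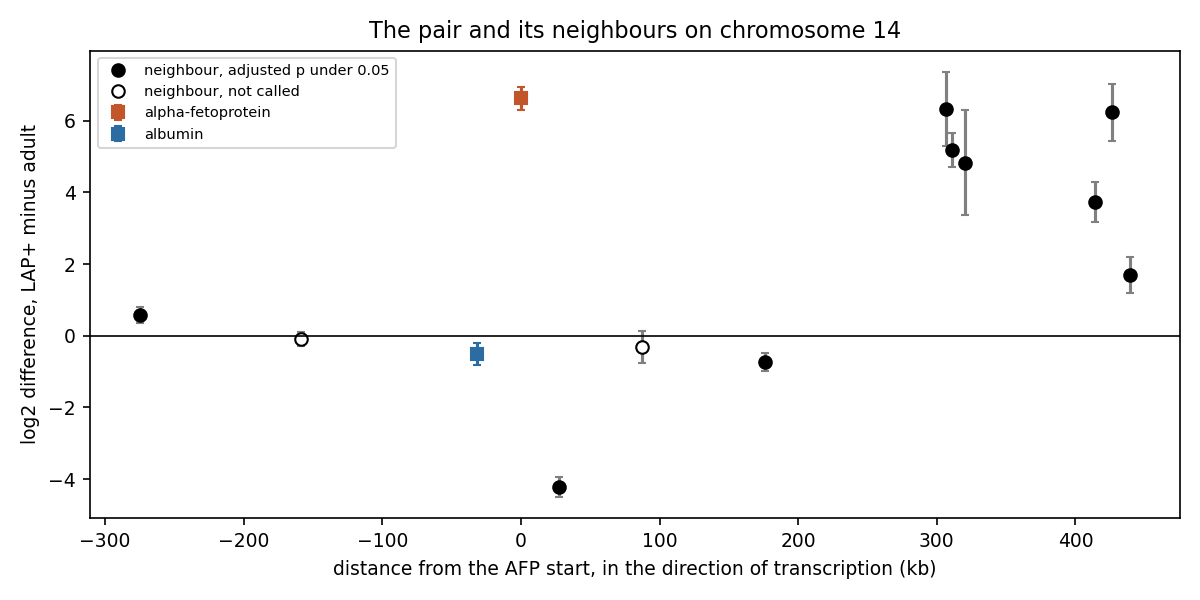
Log2 difference, LAP+ minus adult (y axis, bars show the SE), of the pair and of the 11 tested features within 500000 nt, by the distance of their start from the AFP start along the direction of transcription (kb). AFP stands at 6.62 between albumin at -0.52 and a neighbour at -4.21.

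By likeness of pattern over the 16 libraries before transplantation, the pair had different partners. Between albumin and AFP the Pearson correlation of log2(CPM + 1) was 0.20 over these 16 libraries and 0.99 over the 12 fetal ones, as a description over libraries that fall into separate groups. The feature most like albumin was ENSRNOG00000016325 (chromosome 3, 80529428 to 80543031; r = 0.999), at 2752 ± 298 CPM in adult, 2179 ± 275 CPM in LAP+ and 147 ± 66.6 CPM in LAP+/OC2+ cells (n = 4 each, SD). A feature on chromosome 2 (235264219 to 235305781; r = 0.998) came next. The feature most like AFP was ENSRNOG00000060179 (chromosome X, 139579268 to 139916883; r = 0.999), at 5.24 ± 0.52 CPM in adult, 402 ± 109 CPM in LAP+ and 24.9 ± 8.55 CPM in LAP+/OC2+ cells (n = 4 each, SD). It was followed by a feature on chromosome 2 (93981656 to 93985378; r = 0.996). These features were chosen by their likeness, so their shared pattern is a description.

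After transplantation, albumin stayed the leading transcript and AFP was scarce in both tissues. Albumin took 8.23, 7.28, 6.72, 7.09 and 5.51% of nuclear counts in the hosts of animals 242, 243, 246, 248 and 249, and 7.08, 6.36, 6.67, 6.495 and 5.02% in their colonies. AFP had 96, 121, 98, 63 and 65 counts in the hosts and 186, 128, 189, 59 and 189 counts in the colonies, in the same order. It ranked between 7396 and 9562 in hosts and between 5968 and 9619 in colonies by counts per exon nucleotide, so that colonies did not hold AFP at a level near that of albumin. All these levels lay above what 3 counts are worth, 0.189 to 0.353 CPM in the host and colony libraries. Levels above that limit are unlikely, though not impossible, behind a count of 0 (counting error only).

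Within animals, AFP levels were higher in the colony by a margin that did not pass the test. AFP stood at 10.3 CPM in the host and 12.3 CPM in the colony of animal 242, at 8.79 and 9.95 CPM in animal 243, and at 8.75 and 14.4 CPM in animal 246. It stood at 6.23 and 6.53 CPM in animal 248 and at 5.82 and 10.5 CPM in animal 249. The colony was higher in 5 of 5 animals, with overlap between the groups as a whole. The fitted difference was 0.42 on the log2 scale (SE 0.22) and did not pass the threshold (edgeR adjusted p = 0.29), in a comparison where 1.17% of 22303 genes were called, 0.565% higher and 0.61% lower. Over all these genes the median difference was 0.11.

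Albumin was lower in the colony in 4 of 5 animals. It stood at 93721 CPM in the host and 61477 CPM in the colony of animal 242, at 83385 and 62291 CPM in animal 243, and at 61631 and 64081 CPM in animal 246. It stood at 80845 and 60551 CPM in animal 248 and at 60637 and 40791 CPM in animal 249. The fitted difference of -0.39 (SE 0.15) did not pass the threshold (edgeR adjusted p = 0.16). It was called without animal 246, the animal with more albumin in the colony (log2 difference -0.50, edgeR adjusted p = 1.9e-04). With any other animal left out it was not called (edgeR adjusted p from 0.30 to 0.52). With all animals it was called by DESeq2 (-0.39, adjusted p = 0.026) and limma-voom (-0.43, adjusted p = 2.0e-05). Host and colony levels overlapped.

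**Figure D5:**
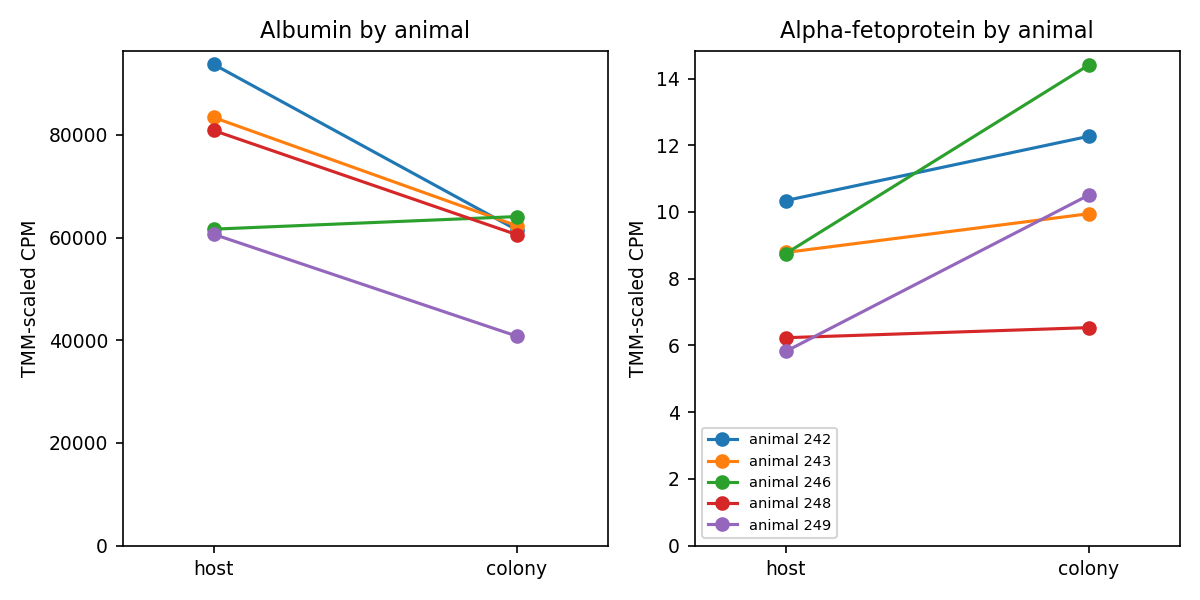
TMM-scaled CPM of albumin (left) and alpha-fetoprotein (right) in host and colony tissue, with a line for each of the 5 animals. AFP is higher at the colony end of each of the 5 lines, least so in animal 248 (6.23 and 6.53 CPM), and albumin is lower at the colony end of 4 of 5.

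Per exon nucleotide, AFP stood at 0.0115, 0.011, 0.0148, 0.00801 and 0.00998% of albumin in the hosts and at 0.0207, 0.0166, 0.0234, 0.0112 and 0.0268% in the colonies of animals 242, 243, 246, 248 and 249. The ratio was higher in the colony in 5 of 5 animals. The log2 difference was 0.85, 0.60, 0.66, 0.49 and 1.42, with a mean of 0.80 ± 0.37 (SD, n = 5; 2-sided exact sign-flip permutation p = 0.0625, the smallest that 5 animals allow, adjusted p = 0.1 over 8 comparisons). Taken without the pairing, the same difference had an adjusted exact permutation p of 0.046. That test treats host and colony libraries as independent, although they came from the same 5 animals, so the paired test is the one that follows the design.

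The AFP difference of the LAP+ and adult cells was not carried at its size into colony and host. In a fit of all 26 libraries, colony minus host lay 6.40 below LAP+ minus adult on the log2 scale for AFP (log2 difference -6.40, edgeR adjusted p = 6.4e-15, SE 0.33), where 27.0% of genes were called, 9.85% higher and 17.1% lower. For albumin the difference of differences was -0.07 (edgeR adjusted p = 1, SE 0.34), and its sign changed with the scaling (0.15 with RLE size factors). In the nearest downstream feature it was 3.66 (SE 0.29), with levels of 815 ± 188 CPM for colonies against 1029 ± 189 CPM for hosts (SD, n = 5 each; colony minus host log2 difference -0.35, edgeR adjusted p = 0.15). Over the 13 features tested in the window, the median colony minus host difference was 0.25 and the smallest edgeR adjusted p was 0.058.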

How the data were processed

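RNA was sequenced in 16 libraries of cells before transplantation (NEBNext Ultra kit, per the labels' protocols) and 10 of laser-captured tissue after it (SMARTer Stranded Pico kit). Each deposited table holds unnormalized read counts for one library, with exon coordinates per the file headers. The submitters' processing notes name STAR 2.5.2b, featureCounts (Subread 1.5.2), Trimmomatic 0.36 and bcl2fastq 2.17, with no role or order. The sources used here do not name the build, the annotation release or a strand setting.

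Differences were fitted by edgeR 4.0.16 under R 4.3.3 (TMM, filterByExpr on the design, robust quasi-likelihood F test), adjusted over all genes tested, at 0.05. The 16 cell libraries were fitted together without a block, colony and host with the animal as block, and the difference of differences on all 26 libraries. Standard errors are the log2 difference divided by the root of F. Host and colony libraries with 1 number were taken as 1 animal. Their deviations from the group means correlated between -0.13 and 0.47. The log2 ratio of the pair adds 0.5 to each count, divides by exon length and was tested by exact permutation (scipy 1.17.1). Alternatives included RLE size factors, other filters, DESeq2 1.42.0, limma-voom (limma 3.58.1), blocks and leaving out each library or animal. All 44 replicate pairs differed by more than sampling noise, with a chi-square of at least 4.91 for each degree of freedom.

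The reference table of RefSeq genes pairs 0 of the 32552 identifiers with a symbol, so lists of regulators, plasma proteins and cell type markers could not be applied. The pair was taken by its 2 identifiers. Besides it, the rule for named features takes the 2 most similar over 16 libraries and the 2 nearest tested neighbours. Members and lists were chosen with earlier results of these data known. The comparison of adult levels with LAP+ levels and the exon comparison were added after values were seen.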

Additional observations from a re-analysis of the deposited data

Results flagged for a closer look

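Single libraries stood far from the other 3 of their group, with a gap to the nearest of them that took more of the group's range than Dixon's critical value allows. The AFP share of nuclear counts was 6.60% in LAP+ library 2 and 5.85% in LAP+/OC2- library 1. In that LAP+/OC2- library the albumin share was 9.11% and the log2 ratio of AFP to albumin per exon nucleotide was -0.58, against -1.35 to -1.29 in libraries 3, 4 and 5. Chance flags about 1 in 20 groups. The 18 sets of values examined share their libraries, and 3 of the 4 flags are the same LAP+/OC2- library, so their number was not compared with that rate.

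The AFP difference of colony and host differed from that of LAP+ and adult cells by -6.40 on the log2 scale (edgeR adjusted p = 6.4e-15).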

How the results depend on the processing

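Where an alternative had an adjusted p, the result kept its direction and its side of the threshold in 138 cases under other settings and in 173 that left out a library or animal. Under other settings 9 tested results changed sign and 5 newly passed the threshold. With a library or animal left out, 6 changed sign and 1 newly passed it. Values without a p have no side of the threshold and were not counted among these. Of them, 27 and 100 stayed the same. Under other settings 4 moved in size and 1 changed sign, and 5 changed sign with a library or animal left out. Fitted on the 2 groups alone, albumin passed the threshold for LAP+ minus adult (-0.49) and LAP+/OC2- minus adult (-0.51). Albumin in colony minus host passed it with DESeq2 (-0.39) and limma-voom (-0.43) and ranged from -0.50 to -0.34 when each animal was left out. Its difference of differences, near 0, turned positive with RLE size factors (0.15), no low-count filter (0.13), a stricter one (0.14), mitochondrial features left out (0.13), DESeq2 (0.15) and a filter by group size chosen after seeing the data (0.14), and ranged from -0.17 to 0.15 with a library or animal left out. Under the same settings the AFP difference of differences lay between -6.20 and -6.17, beside -6.40 in the main fit. The cause was not tested. LAP+/OC2- minus LAP+ also changed sign, with limma-voom for albumin (0.087), and with each library left out it ranged from -0.090 to 0.092 for albumin, from -0.13 to 0.048 for AFP and from -0.23 to 0.14 for the log2 ratio. The ratio for LAP+/OC2+ minus LAP+/OC2- ranged from -0.26 to 0.033. As a share of all counts, albumin in LAP+/OC2+ cells was 0.316%, AFP 0.124%, and AFP in adult cells 0.0347%. In a window of 250000 nt, all 5 tested neighbours (100%, 3 higher and 2 lower) were called for LAP+/OC2+ minus LAP+/OC2-, beside 67.5% of all genes, and 60.0% for LAP+ minus adult, beside 60.3% of all genes, with a median of -0.30 in place of 1.69.

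Before transplantation, libraries with equal replicate numbers share only a number: their deviations correlated between -0.52 and 0.22, over 0.1 in 4 of 21 pairs. With the replicate block, LAP+/OC2- minus LAP+ was 0.0072 for albumin, 0.0093 for AFP and 0.19 for the log2 ratio. Without the replicate block, the colony minus host ratio difference of 0.80 had an adjusted p of 0.046 by exact permutation.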
